A study of Mus musculus with 2 samples.

Results

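The genes of the miR-99/100 and miR-125 families were described in small RNA libraries from the neural tube of mouse embryos at embryonic day 13.5, the tissue that forms brain and spinal cord. The members are Mir99a, Mir100, Mir99b, Mir125b-2, Mir125b-1 and Mir125a, found by their GENCODE names among the 1973 genes of the deposited tables, and all 6 were found. Both libraries, replicate 1 and replicate 2, are of 1 group: healthy embryos of the strain B6NCrl, pooled over males and females, with no treatment named and a library size range given as under 30. The labels name a separate tissue sample for each library and 1 donor entry at the level of the strain, so the spread given is that between 2 pools. No second condition was sampled, and the comparisons are between genes of the same libraries. An exact two-sided sign-flip test over 2 libraries cannot give a p below 0.5, so differences are set beside the SD of the 2 libraries.

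A microRNA is cut from a hairpin precursor, and bases 2 to 8 of the mature strand, the seed, pair with target messenger RNAs. In vertebrates, genes of the miR-99/100 family and of the miR-125 family lie in the same genomic clusters, with a let-7 gene between them. MiR-125 is the vertebrate relative of lin-4, the founding microRNA of Caenorhabditis elegans and a timer of its larval development, and in mammals it is known to repress Lin28a and to rise in neural differentiation. Mtor is a known target of miR-99/100. Let-7 is known to accumulate as tissues mature, and Lin28a blocks its processing.

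The mature 5p strands are shown because their likeness sets which reads can be placed on 1 gene. They are taken from RefSeq on GRCm38.p6, where all 6 members had a match, and the capitals mark the seed.
miR-99a-5p: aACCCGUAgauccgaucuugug
miR-100-5p: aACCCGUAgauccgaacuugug
miR-99b-5p: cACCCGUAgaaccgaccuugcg
miR-125b-5p: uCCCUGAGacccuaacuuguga
miR-125a-5p: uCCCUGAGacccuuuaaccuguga
The first 3 strands share the seed ACCCGUA, and in the RefSeq table it was found in no other mature strand. MiR-99a-5p and miR-100-5p differ at 1 of 22 bases, U16A, counted from the 5′ end with the base of miR-99a given first. MiR-99b-5p differs from miR-99a-5p at 4 bases (A1C, U11A, U16C and U21C), all outside the seed. The miR-125 strands share the seed CCCUGAG, with their first 13 bases in common. The strand miR-125b-5p is encoded identically by Mir125b-1 and Mir125b-2, over all 22 bases.

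The opposite strands of the 2 Mir125b hairpins are shown because, unlike the 5p strand, they differ between the copies.
miR-125b-1-3p: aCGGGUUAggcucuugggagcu
miR-125b-2-3p: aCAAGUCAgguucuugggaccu
They differ at 5 of 22 bases (G3A, G4A, U7C, C11U and G20C, with the base of miR-125b-1-3p first). A read of the 5p strand matches both copies equally, while a 3p read can be placed on 1 of them. The tables give 1 count for each gene and do not separate the strands.

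The members lie in 3 clusters, all on the plus strand, in the coordinates of GENCODE M21 on GRCm38. On chromosome 16, Mir99a (ENSMUSG00000065530, 77598936 to 77599000) and Mir125b-2 (ENSMUSG00000065472, 77646273 to 77646343) lie in introns of the non-coding host gene Mir99ahg, with Mirlet7c-1 between them. The last 4 nt of Mir125b-2 also overlap an exon of C130023A14Rik. On chromosome 9, Mir100 (ENSMUSG00000093011, 41531425 to 41531504) and Mir125b-1 (ENSMUSG00000093354, 41581926 to 41582002) lie in introns of the non-coding gene 3110039I08Rik, with Mirlet7a-2 between them. Mir125b-1 also lies within an exon of Gm28119, and Mir100 lies opposite an exon of Gm48742 on the minus strand. On chromosome 17, Mir99b (ENSMUSG00000065396, 17830188 to 17830257) lies in an intron of the protein-coding gene Spaca6, and Mir125a (ENSMUSG00000065479, 17830812 to 17830879) overlaps by 47 nt an exon of 1 of the 16 Spaca6 transcripts, a non-coding one. This cluster is compact. It spans 692 nt, against 47408 nt on chromosome 16 and 50578 nt on chromosome 9.

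Every miR-99/100 gene had more counted reads than every miR-125 gene, where the counts of the Mir125b genes were taken to leave out reads that fit both copies. Such reads would be among the multimapping reads, which the tables list apart from the genes. Values are same-strand counts scaled to 1000000 (CPM), from gene totals of 7019469 counts (replicate 1) and 5738209 (replicate 2). They are not divided by length, and the annotated genes are alike in length, at 65 to 80 nt. All 6 members passed a minimum of 10 counts per library, where 18.8% of the genes of the table did. Together they held 18.1% of the same-strand counts in replicate 1 (Wilson 95% interval 18.05% to 18.1%) and 18.3% in replicate 2 (18.27% to 18.3%). With the multimapping reads added to the total, the mean share was 11.6%.

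Mir99a, on chromosome 16, had 847902 counts in replicate 1 and 703844 in replicate 2, or 120793 and 122659 CPM (mean 121726 ± 1320, SD, n = 2). It ranked 3 of all genes in both libraries, below Mir10a and Mir10b. Mir100, of the chromosome 9 cluster, had 268521 and 229327 counts, or 38254 and 39965 CPM (mean 39109 ± 1210), and ranked 4 in both. Mir99b, of the chromosome 17 cluster, had 119388 and 93997 counts, or 17008 and 16381 CPM (mean 16695 ± 444), and ranked 10 in both. The 3 genes thus keep 1 order of counted reads in the libraries, with gaps far wider than the difference between replicates. On the log2 scale Mir99a exceeded Mir100 by 1.64 ± 0.029, and Mir100 exceeded Mir99b by 1.23 ± 0.083.

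Mir125a had the most counted reads of the miR-125 genes, with 20237 counts in replicate 1 and 12330 in replicate 2, or 2883 and 2149 CPM (mean 2516 ± 519). Mir125b-2 had 7059 and 6042 counts, or 1006 and 1053 CPM (mean 1029 ± 33.5). Mir125b-1 had 5992 and 4706 counts, or 854 and 820 CPM (mean 837 ± 23.7). By mean CPM these genes ranked 54, 78 and 86. The 2 Mir125b copies were close, with a log2 ratio of Mir125b-2 to Mir125b-1 of 0.24 in replicate 1 and 0.36 in replicate 2 (mean 0.30 ± 0.088). The log2 ratio of Mir125a to both copies together was 0.63 in replicate 1 and 0.20 in replicate 2. Mir125b-2 would equal Mir125a if 0.672% of the multimapping reads in replicate 1 and 0.380% in replicate 2 were miR-125b, split evenly between the copies, and both copies together would equal it at 0.183% and 0.0478%. The order of Mir125a and the Mir125b copies is therefore one of counted reads only. By counted reads, no neighbours in the order of the 6 levels overlapped between libraries.

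**Figure D1:**
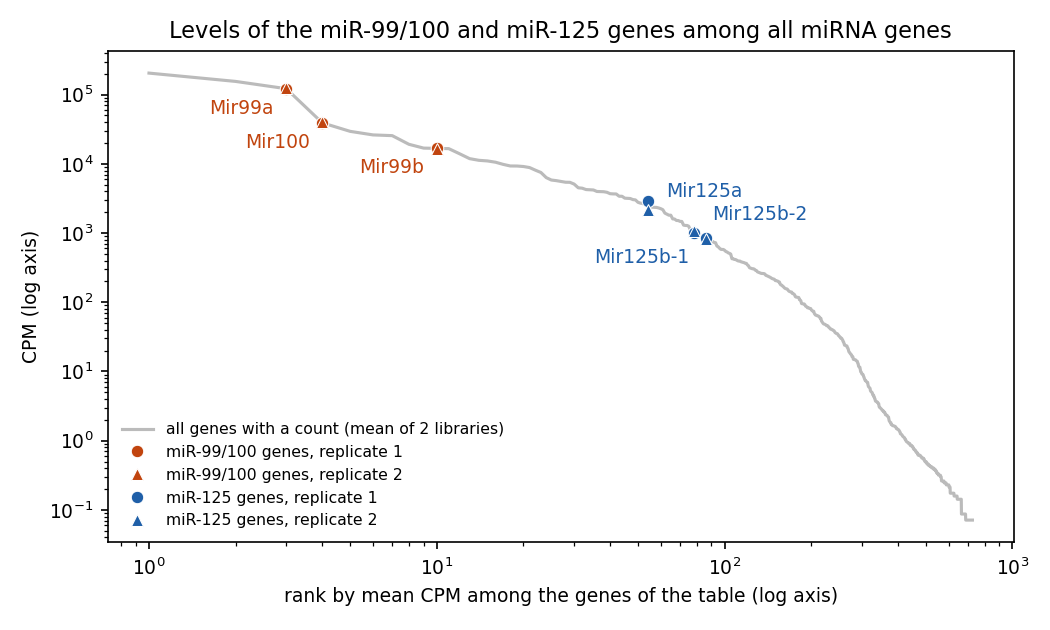
CPM of the 6 members in each library (circles, replicate 1; triangles, replicate 2) against their rank by mean CPM, on log axes, with all genes that had a count as the grey line. The miR-99/100 genes sit at ranks 3, 4 and 10 and the miR-125 genes at ranks 54, 78 and 86.

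Within each cluster the miR-99/100 gene exceeded the miR-125 gene in both libraries, and the size of the gap differed between clusters. On chromosome 16 the log2 ratio of Mir99a to Mir125b-2 was 6.91 in replicate 1 (exact 95% counting interval 6.87 to 6.94) and 6.86 in replicate 2 (6.83 to 6.90). Its mean was 6.89 ± 0.031, or 118-fold. On chromosome 9 the ratio of Mir100 to Mir125b-1 was 5.49 (5.45 to 5.52) and 5.61 (5.57 to 5.65), averaging 5.55 ± 0.085, or 46.7-fold. On chromosome 17 the ratio of Mir99b to Mir125a was 2.56 (2.54 to 2.58) and 2.93 (2.90 to 2.96), averaging 2.75 ± 0.26, or 6.71-fold. Per nucleotide of annotated gene, an alternative chosen after seeing the data, the means were 7.01, 5.49 and 2.70. The order of the clusters by counted reads was the same in both libraries. The ratio on chromosome 16 exceeded that on chromosome 17 by 4.14 ± 0.29 log2 units and that on chromosome 9 by 1.34 ± 0.12, and both gaps are larger than the SD. All multimapping reads were also credited to the Mir125b copies, split evenly, an upper limit for both copies together and not for either alone. The gap between chromosomes 16 and 17 then turned to -3.97. That between chromosomes 9 and 17 turned to -5.61, against 2.80 by counted reads, and chromosome 17 had the highest ratio. Chromosomes 16 and 17 would have equal ratios with 6.97% of the multimapping reads so credited in replicate 1 and 5.21% in replicate 2.

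Such gaps by counted reads are common between neighbouring microRNA genes. Of 686 pairs of same-strand genes within 60 kb, each with at least 10 counts in both libraries, 61.8% differed by more than 2 log2 units, as all 3 cluster pairs did. Of these pairs 513 lie on chromosome 12. Off that chromosome the share was 64.2%. The median over all pairs was 2.76, and the 3 cluster pairs ranked 60 (chromosome 16), 126 (chromosome 9) and 344 (chromosome 17). The gap on chromosome 17 thus stood near the median. In pairs with a gene whose mature strand has another copy, reads that fit both copies were taken to be left out. They include the cluster pairs on chromosomes 16 and 9, Mir99a with Mirlet7c-1 (rank 11) and Mir100 with Mirlet7a-2 (rank 18). How many pairs are of this kind was not counted, so these shares and ranks are of counted reads only.

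**Figure D2:**
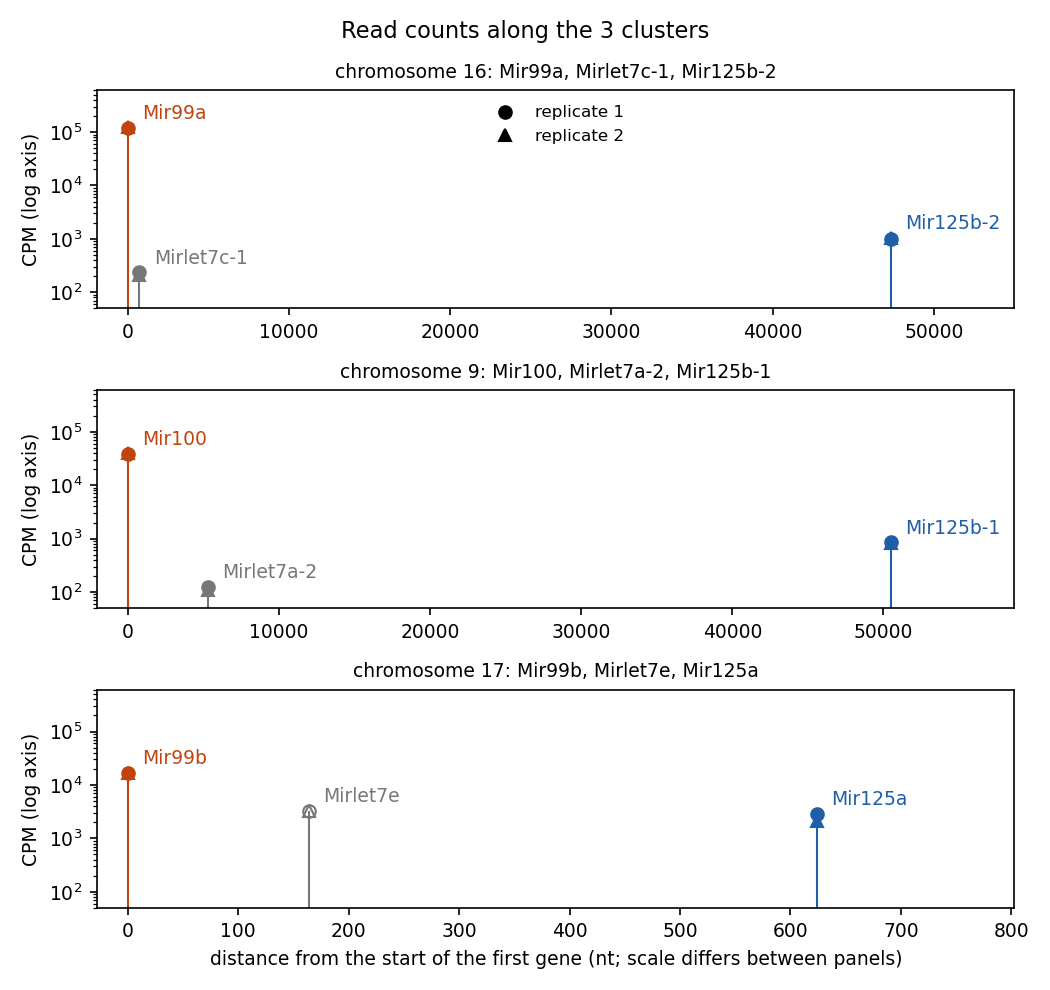
CPM (log axis) of each gene in the 3 clusters against its distance in nt from the start of the first gene, with circles for replicate 1 and triangles for replicate 2. The open symbols of Mirlet7e are counts on the opposite strand of Gm25927. In each panel the miR-99/100 gene on the left is the highest.

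Of the counted reads on the 6 genes, the chromosome 16 cluster held 67.4% in replicate 1 and 67.6% in replicate 2. The chromosome 9 cluster held 21.6% and 22.3%, and the chromosome 17 cluster 11.0% and 10.1%. With all multimapping reads credited evenly to the Mir125b copies, the mean shares were 54.2% for chromosome 16, 43.2% for chromosome 9 and 2.56% for chromosome 17. Summed by family, replicate 1 had 1235811 counts on the miR-99/100 genes and 33288 on the miR-125 genes, and replicate 2 had 1027168 and 23078. The log2 ratio of the families was thus 5.21 and 5.48. It averaged 5.35 ± 0.19, or 40.6-fold. With the chromosome 17 cluster left out, an alternative chosen after seeing the data, it was 6.43. The miR-99/100 genes held 97.4% and 97.8% of the members' counts in replicates 1 and 2, and the miR-125 genes 2.62% and 2.20%. With all multimapping reads credited, the miR-125 genes would hold 76.2% in replicate 1 and 76.4% in replicate 2.

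The low counts of the Mir125b genes carry a limit that the other 4 members do not share to the same degree. The tables list reads that map to several places on a line of their own, with the same number in all 3 columns, and these were taken to be in no gene's count. Such multimapping reads numbered 3921182 in replicate 1 and 3310889 in replicate 2, 300.5-fold and 308-fold the summed counts of Mir125b-1 and Mir125b-2. MiR-125b-5p reads would fall in this class, and how many did was not measured. Among the mature entries of the RefSeq table, 54 of 1674 distinct sequences belong to more than 1 gene, so other microRNAs share this class. The number is a minimum, since let-7a-5p has an entry for Mirlet7a-1 alone, though 2 hairpins hold it. For the 2 family totals to be equal, 30.7% of the multimapping reads in replicate 1 and 30.3% in replicate 2 would have to be miR-125b. For Mir100 and Mir125b-1 to be equal, with the reads split evenly between the copies, the share would be 13.4% and 13.6%, and for Mir99a and Mir125b-2 it would be 42.9% and 42.2%. Every such read was also credited to miR-125b, split evenly between the copies. The mean log2 ratios would then be -1.69 for the families, -1.23 on chromosome 16 and -2.86 on chromosome 9. The direction of these 3 ratios therefore holds for the counted reads and cannot be carried over to the molecules, and the same holds for the order of the clusters, their shares and the order of Mir125a and the Mir125b copies. The comparison of Mir99b with Mir125a does not meet this limit among the mature entries of the RefSeq table. The longest stretch that a mature strand of Mir99b shares with one of another gene is 10 nt, and for Mir125a it is 13 nt. Other sites in the genome were not searched.

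**Figure D3:**
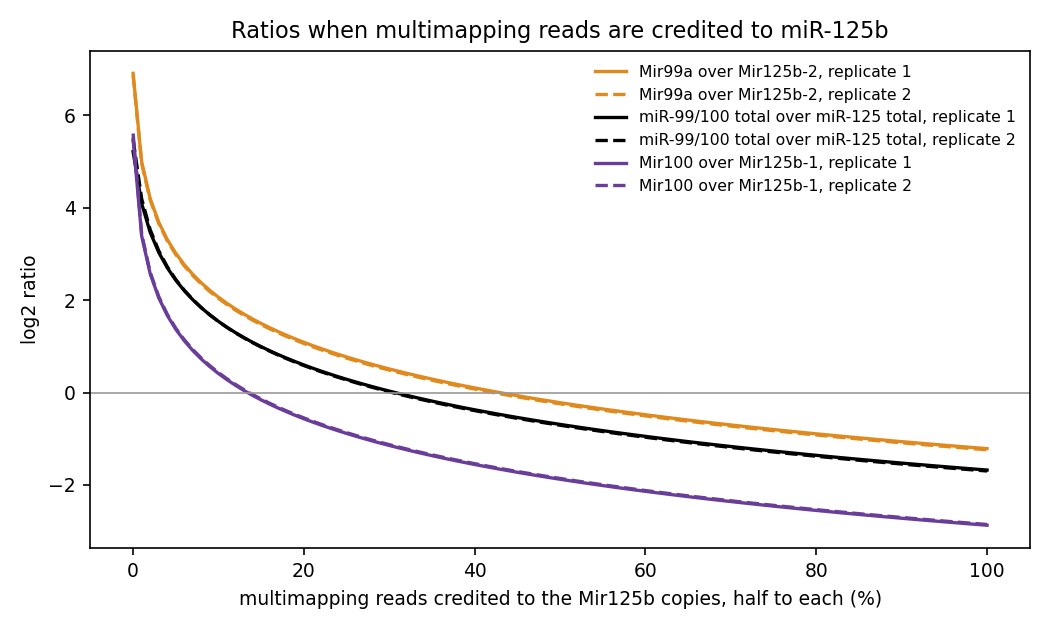
Log2 ratio of miR-99/100 to miR-125 counts against the percentage of multimapping reads credited to the 2 Mir125b copies, split evenly, for the family totals and for the chromosome 16 and 9 pairs (solid lines, replicate 1; dashed lines, replicate 2). The family curves cross 0, where both families are equal, at 30.7% and 30.3%.

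The let-7 gene of each cluster was compared as the third product of the locus. Mir99a exceeded Mirlet7c-1 by 9.08 ± 0.14 log2 units, with 238 and 212 CPM for Mirlet7c-1 in replicates 1 and 2. Mir100 exceeded Mirlet7a-2 by 8.38 ± 0.19, with 126 and 109 CPM for Mirlet7a-2. Mirlet7c-1 and Mirlet7a-2 were thus the lowest genes of their clusters, also below the Mir125b copies, by 2.20 ± 0.17 and 2.83 ± 0.10 log2 units. The mature let-7c-5p is found in the RefSeq hairpins of Mirlet7c-1 and Mirlet7c-2, and let-7a-5p in those of Mirlet7a-1 and Mirlet7a-2, so the limit of multimapping reads holds for both. The copies elsewhere were at similar levels, Mirlet7c-2 at 245 and 182 CPM and Mirlet7a-1 at 104 and 84.9 CPM.

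On chromosome 17 the table holds Gm25927 on the minus strand, across the place of Mirlet7e. Gm25927 had 0 same-strand counts in both libraries and 22794 and 18979 on the opposite strand, which is the strand of Mirlet7e, or 3247 and 3307 CPM. Taken as Mirlet7e, these counts put Mir99b 2.35 ± 0.057 log2 units above it, while the ratio of Mir125a to it was -0.17 in replicate 1 and -0.62 in replicate 2 (mean -0.40 ± 0.32). By counted reads, Mir125a thus stood below its let-7 gene in both libraries, while the Mir125b copies stood above theirs. The 5p reads of the Mir125b copies and of their let-7 genes fit 2 genes each. This contrast can therefore not be carried over to the molecules. Let-7e-5p is in 1 RefSeq hairpin only.

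Between the libraries, 5 of the members were nearly equal. The log2 differences, replicate 2 minus replicate 1, ranged from -0.058 (Mir125b-1) to 0.066 (Mir125b-2) for the 5 genes other than Mir125a. Mir125a was lower in replicate 2 by a difference of -0.42 (exact 95% counting interval -0.46 to -0.39). No member differed by more than 0.5 log2 units, while 13.2% of the 371 genes that reached 10 counts in both libraries did. The median absolute difference was 0.060 for the members and 0.20 over the 371 genes. The 371 genes were not matched to the members in level. They include genes with few counts, such as Mir292 with 19 and 10, while the lowest member count was 4706 (Mir125b-1, replicate 2). These comparisons therefore do not show that the members differed less between libraries than other genes of their level. Of the 371 genes, 80.6% had a difference no larger than that of Mir125a. The other genes of its compact cluster did not share this difference, with -0.054 for Mir99b and 0.027 for the counts at the place of Mirlet7e. The chromosome 17 ratio, of which Mir125a is the denominator, had the widest SD of the 3 cluster ratios.

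**Figure D4:**
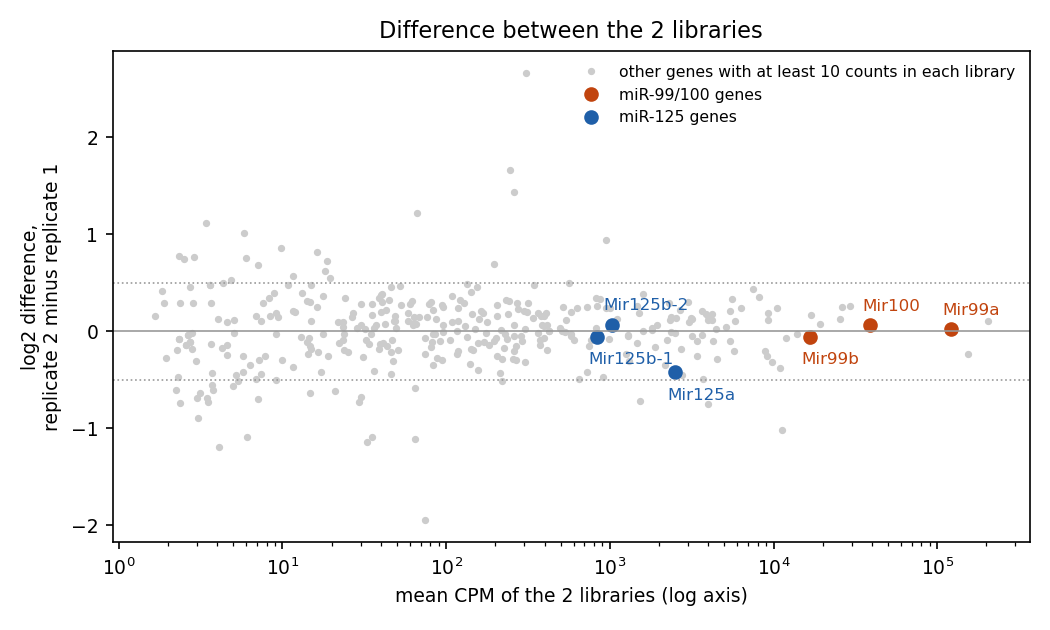
Log2 difference of replicate 2 minus replicate 1 against mean CPM (log axis) for the 371 genes that reached 10 counts in both libraries, with the members in colour. Dotted lines mark 0.5 either way, and Mir125a at -0.42 is the member farthest from 0.

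The 5p strands of some relatives by sequence or seed are shown to set their seeds, in capitals, beside those of the members.
miR-10a-5p: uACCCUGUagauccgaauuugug
miR-10b-5p: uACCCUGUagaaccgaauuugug
miR-351-5p: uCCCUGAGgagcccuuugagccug
Mir10a and Mir10b, whose 5p strands share up to 11 nt with miR-100-5p but hold the different seed ACCCUGU, were the 2 genes above Mir99a, at 204585 ± 10774 and 155134 ± 18085 CPM. The miR-125 seed was also found in Mir351, Mir6367 and Mir6394, named here by their seed after the tables had been opened. Mir351, on chromosome X, had 1063 CPM in replicate 1 and 765 in replicate 2, close to the counted reads of the Mir125b copies. The counts of those copies were taken to leave out reads that fit both, so this closeness is not one of molecules. Mir6367 and Mir6394 had 0 counts, which allows up to 0.43 CPM in replicate 1 and 0.52 in replicate 2 by counting error alone.

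The genes nearest in mean level, 1 above and 1 below each member, included Mir130a and Mir126a for Mir99b, Mir381 and Mir431 for Mir125a, Mir467c and Mir101b for Mir125b-2, and Mir467d and Mir154 for Mir125b-1. Each was within 0.041 log2 units of its member in mean CPM over the 2 libraries. Below Mir100, Mirlet7g stood 0.41 lower. This likeness is of counted reads only, and those of the Mir125b copies were taken to leave out reads that fit both copies.

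Of the listed neural marker genes, 7 of 8 were in the table, and their summed level was 7765 CPM in replicate 1 and 7929 in replicate 2, mainly from Mir137 and Mir219a-2. The 3 Mir124a genes, hallmarks of neurons, held at most 31 counts, but are copies of 1 microRNA. Of the Mir9 genes, also copies of 1 microRNA, Mir9-3 stood at 373 CPM in replicate 1 and 415 in replicate 2. Mir9-2 held 9 and 3 counts, and Mir9-1 was not in the table. Mir126a, of endothelium, stood at 17134 and 16019 CPM, and the mesenchymal genes Mir143, Mir145a and Mir214 summed to 5752 and 7103 CPM. Of 4 listed muscle genes, Mir206, Mir133b and Mir1a-1 were found and summed to 119 and 378 CPM. Nearly all of this was Mir206, at 117 and 373 CPM, and Mir1a-2 was not found. Mir122 of liver stood at 118 and 30.7 CPM, and Mir451a, Mir144 and Mir486 of red cells summed to 76.1 and 48.3 CPM. Mir449a, of multiciliated cells, stood at 84.1 and 532 CPM. The part of other cell types in the levels of the members was not tested, and in bulk tissue fewer cells of a type and less RNA per cell cannot be told apart.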

How the data were processed

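Small RNA was sequenced in 2 libraries of 1 group. The deposited values are raw counts per gene. Per the file headers, the build is mm10 and the annotation M4, with the aligner and counter not given in the sources used here. No header names the 3 count columns. The second was taken as the same-strand count, since it and the third sum to the first over all genes and it holds nearly all reads, and lines for unmapped, multimapping, no-feature and ambiguous reads stayed out of all totals. Multimapping reads were 28.5% and 31.0% of the reads and unmapped reads 17.4% and 12.2% in replicates 1 and 2. Gene identifiers were matched without version to GENCODE M21, and 1894 of 1973 matched.

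CPM, log2 ratios (pseudocount 0.5) and shares were computed from same-strand counts with Python 3.11.15 and scipy 1.17.1. Wilson and exact 95% intervals and floors reflect counting error alone, because PCR reads that carry no molecular identifier need not be separate molecules. The libraries were not copies of the same counts and differed by more than counting error: a chi-square test over 371 genes gave 201 for each degree of freedom. The test cannot tell separate samples from 2 libraries of 1 sample. Exact intervals of the replicate difference were tested on counts of 371 genes simulated with counting error alone, and held the true value for 93.3%. The real libraries differed by more than that error, so this does not show how often the intervals hold in them. Alternatives were the unstranded column, other totals, pseudocounts and count minimums, multimapping reads credited to Mir125b, and each replicate left out. Scaling alternatives used edgeR 4.0.16 and DESeq2 1.42.0 in R 4.3.3. The members, gene lists and the rule for named genes (members, let-7 genes of the clusters and their copies, Mir10a, Mir10b, nearest genes by level and the most abundant gene) were chosen with earlier results of these data known.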

Additional observations from a re-analysis of the deposited data

Results flagged for a closer look

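A pair of signals lay outside the same-strand gene counts. Gm25927, the minus-strand gene across the place of Mirlet7e between Mir99b and Mir125a, had 22794 opposite-strand counts in replicate 1 and 18979 in replicate 2, with 0 on its own strand. None of the 6 members had an opposite-strand count. Multimapping reads, 3921182 in replicate 1 and 3310889 in replicate 2, were taken to be in no gene's count, and their content of miR-125b was not measured.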

How the results depend on the processing

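All multimapping reads were credited to the Mir125b copies, split evenly, an upper limit for both copies together and not for either alone. The log2 ratios reversed to -1.23 for Mir99a to Mir125b-2, -2.86 for Mir100 to Mir125b-1 and -1.69 for the families. Credited likewise, in alternatives chosen after seeing the data, the ratio of Mir125a to both Mir125b copies reversed to -7.84. The gaps between cluster ratios reversed likewise to -3.97 (chromosome 16 minus 17) and -5.61 (chromosome 9 minus 17), while chromosome 16 minus 9 moved to 1.64. These gaps were not computed for an uneven split. The shares became 54.2%, 43.2% and 2.56% for the clusters on chromosomes 16, 9 and 17, and 76.3% for the miR-125 genes. The share of the 6 members was 17.9% of unstranded counts, 11.6% with multimapping reads in the total and 22.9% without Mir10a in the total. The last 2 settings moved all 6 levels alike, to 533.9 CPM for Mir125b-1 and 77640 for Mir99a with multimapping reads, and to 1052 and 153060 without Mir10a. Of the other alternatives chosen after seeing the data, adding Mir351 to the miR-125 total gave 5.07, leaving out the chromosome 17 cluster 6.43, and counts per nucleotide of gene 7.01 for Mir99a to Mir125b-2. A pseudocount of 1 moved no cluster ratio by more than the replicate SD, and count minimums of 1 or 100 still left 6 members. Leaving out a replicate gives the other library's own value, and with 2 libraries this move is always below the SD, so it shows nothing of stability. TMM factors from edgeR shifted all differences between libraries by -0.033 and DESeq2 size factors by -0.025 log2 units, which turned that of Mir99a to -0.011 and -0.0026, and no member passed 0.5. No paired analysis was possible because there is 1 group only. With 2 libraries the SD is itself uncertain.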
